A study of Ovis aries with 48 samples.

Results

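MIR181A-1 and MIR181A-2 are the 2 rows of miR-181a, a microRNA made from a pair of gene copies, in tables of sheep fat in which each microRNA row stands beside 104 others. They were chosen by name. The gene identifiers are 102464498 for MIR181A-1 and 102465814 for MIR181A-2 in RefSeq (assembly ARS-UI_Ramb_v3.0). The 2 copies lie on different chromosomes, MIR181A-2 inside NR6A1 and a long non-coding RNA, LOC105611269, and MIR181A-1 in no other listed gene. No other member of the miR-181 family (5 further names were looked for) had a row in the tables.

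MicroRNAs are short RNAs, cut from hairpin transcripts, that pair with messenger RNAs through a seed near their 5′ end and lower protein output. In mammals the hairpins of both miR-181a copies give the same 5p strand, so that a read of that strand carries no mark of its gene, whereas their 3p strands differ. miR-181a is best known for setting the strength of antigen receptor signalling in developing T cells, and in pig preadipocytes it has been reported to favour fat storage.

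Small RNA of 4 fat depots was sequenced in a testosterone (T) cohort of 8 female sheep, and of 2 depots in a bisphenol A (BPA) cohort of 8 others, giving 48 libraries in 12 groups of 4. In the T cohort, subcutaneous, visceral, epicardial (around the heart) and perirenal (around the kidney) fat came from 4 control sheep and 4 prenatal T sheep, whose mothers received 100 mg testosterone propionate in corn oil by intramuscular injection 2 times a week from gestational day 30 to 90. What the T cohort controls received is not given in the labels. In the BPA cohort, subcutaneous and visceral fat came from 4 control sheep, whose mothers received the corn oil vehicle, and 4 BPA sheep, whose mothers received 0.5 mg per kg per day of BPA in corn oil, both by daily subcutaneous injection over the same days. Age at sampling is not given in the labels. Sheep of both cohorts were kept alike and on a maintenance diet. Every sheep gave all depots of its cohort.

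Libraries held 222537 to 1533680 microRNA reads (median 605582), from 3898 to 25335 of MIR181A-1 and from 4053 to 25411 of MIR181A-2. Library numbers in the labels fell into an early set (24 libraries, numbers up to 48) and a later set (24 libraries, from 81). Profiles of the other microRNAs (78 in T and 71 in BPA libraries) were set against the mean profile of each depot. Of 4 depots, 28 of 32 T libraries lay nearest to their own, and of 2 depots, 16 of 16 BPA libraries did. The exceptions were the libraries labelled visceral of prenatal T sheep 233 and 255 and perirenal of prenatal T sheep 255, all nearest to epicardial fat, and perirenal of control sheep 098, nearest to visceral fat. In that order, r with their own depot was 0.207, -0.399, -0.02 and -0.177, and with the nearest depot 0.389, 0.124, 0.27 and 0.313. The main comparisons are also given without these 4 libraries. Some libraries that were kept also matched their own depot weakly, with r = 0.145 in visceral prenatal T 48 and 0.099 in subcutaneous BPA cohort control 902. The profiles hold microRNAs whose levels ran with MIR181A-1 (MIR106B, r = 0.938 over T libraries). Leaving libraries out by depot profile can thus itself widen depot differences, and p values after it carry that limit. Fat cells could not be checked, since their defining messenger RNAs are not measured in these tables. Of microRNAs that mark other cells, only MIR150 of 6 lymphocyte and myeloid names, MIR133 of 8 striated muscle names, MIR143 of 2 smooth muscle names and MIR200A, MIR200B and MIR200C of 6 epithelial names had rows, and the endothelial name had none. MIR143 is also counted below among microRNAs that promote fat cell formation, so that it does not mark smooth muscle alone.

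miR-181a was abundant in all 4 depots. MIR181A-1 made up 0.58% to 2.57% of microRNA reads (median 1.68%, 48 libraries) and ranked between 8 and 24 among the microRNA rows of the tables. Its share was 1.45% ± 0.436 over the 32 T libraries and 2.01% ± 0.285 over the 16 BPA libraries (mean ± SD). MIR181A-2 had nearly the same value as MIR181A-1 in every library: log2 values of the rows correlated with r = 0.9997 over T and 0.9996 over BPA libraries, across libraries and with a size factor in common. The rows therefore gave almost 1 measurement of level, and a read of the shared strand could not be told apart by copy.

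Prenatal T was compared with control within each depot, on values as deposited (reads divided by a size factor that the authors set within the depot, called normalised reads here). No depot showed a change of either copy that passed the test. In subcutaneous fat MIR181A-1 was at 11079, 11797, 6129 and 15665 normalised reads in controls 098, 131, 132 and 201. In prenatal T sheep 48, 185, 233 and 255 it was at 10849.6, 9779.6, 5700.5 and 7589. All 4 prenatal T values lay below 3 of the controls, and control 132 was within their range. The log2 fold change was -0.36 for each copy (SE 0.33, limma adjusted p = 0.997, and 0% of 71 microRNAs were called at an adjusted p under 0.05). As a share of all microRNA reads it was -0.096 for each copy.

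In visceral fat the 4 controls lay close together, at 6463, 8723, 6127 and 8057 normalised reads of MIR181A-1. The prenatal T sheep spread on both sides of them, with 10968 and 9247 in sheep 48 and 185 and 4680.4 and 3234 in sheep 233 and 255. The 2 low libraries are those that lay nearer to epicardial fat. The log2 fold change was -0.21 for MIR181A-1 (SE 0.40, limma adjusted p = 0.877) and -0.24 for MIR181A-2 (SE 0.40, limma adjusted p = 0.877), with 0% of 76 microRNAs called. Without those 2 libraries it was 0.47 and 0.46 (limma adjusted p = 0.731), and the direction turned. MIR143, listed here under smooth muscle, was at 153692 CPM of microRNA reads in the library of sheep 255 and 53373 in that of 233, against 19567 to 45067 in the visceral controls. Its part in these values was not tested.

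Epicardial controls were the most alike of the 12 groups, at 10454, 10453, 9178 and 10230.0 normalised reads of MIR181A-1. Prenatal T sheep 48, 185, 233 and 255 were at 9390.3, 5167, 12244 and 6484, so that 1 library lay above all controls and 2 lay below all of them. Both low libraries were of the early set, and all 4 controls and both other prenatal T libraries were of the later set. MIR143 was at 91238 and 73186 CPM in the low libraries (sheep 185 and 255), 23874 and 26383 in sheep 48 and 233, and 13859.7 to 26496 in controls. MIR150 was at 6701 to 8144 CPM in controls and 2757 to 5410 in prenatal T sheep. The part of these microRNAs was not tested, and MIR143 could not be told apart from the library set. Both copies had a log2 fold change of -0.35 (SE 0.28 and 0.27, limma adjusted p = 0.386, 0% of 85 microRNAs called). With a term for the library set it was 0.09 for each copy (limma adjusted p = 0.86).

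Perirenal fat had the lowest fold change of the 6 treatment comparisons and the widest error. Controls 098, 131, 132 and 201 were at 25389.8, 12069, 9223 and 11118 normalised reads of MIR181A-1. Prenatal T sheep were at 9336, 11242, 8608 and 2491 in the same order of sheep as before. The highest and the lowest of the 8 values, control 098 and prenatal T 255, were the libraries nearer to other depots, and the remaining 6 ran from 8608 to 12069 with the groups overlapping. The log2 fold change was -0.95 for MIR181A-1 (95% interval -2.10 to 0.19) and -0.97 for MIR181A-2 (-2.12 to 0.19), with a limma adjusted p = 0.427 for each and 0% of 86 microRNAs called. Without both libraries it was -0.15 and -0.16 (limma adjusted p = 0.633), and as a share of all microRNA reads it was -0.37 and -0.39. MIR150, the lymphocyte microRNA, was at 6294 CPM in control 098 and 879 in prenatal T 255. MIR143 was at 37169.6 CPM in the first and 175334 CPM in the second. Their part in the levels of miR-181a was not tested, and in bulk tissue fewer cells of a type and less RNA per cell cannot be told apart.

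BPA was compared with control in the same way. In subcutaneous fat MIR181A-1 was at 12939, 8651, 8781 and 13825 normalised reads in controls 902, 908, 924 and 928, and at 14212, 14925, 12101 and 12746 in BPA sheep 910, 918, 977 and 984. The BPA sheep lay close together in the upper part of the control range or above it, and the groups overlapped. Both copies had a log2 fold change of 0.32 (SE 0.19, 95% interval -0.10 to 0.73 for MIR181A-1, limma adjusted p = 0.626, 0% of 71 microRNAs called). As a share of all microRNA reads it was 0.064 and 0.066.

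In visceral fat of the BPA cohort the controls were at 13164, 10786, 8163 and 9909.8 normalised reads of MIR181A-1. BPA sheep were at 17236, 8773, 10576 and 10740.4, and all but sheep 910 lay within the control range. MIR181A-1 had a log2 fold change of 0.15 and MIR181A-2 one of 0.14 (SE 0.24 and 0.23, limma adjusted p = 0.840, 0% of 76 microRNAs called). Without sheep 910 the values were -0.05 and -0.06, and with a term for the library set both were -0.10. Early libraries were 3 of 4 in the controls and 1 of 4 in the BPA group.

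Across the 6 comparisons, 2, 4, 20, 7, 6 and 4 microRNAs had an unadjusted limma p under 0.05 (T subcutaneous, visceral, epicardial and perirenal, then BPA subcutaneous and visceral), and 0 of these were miR-181a rows. A difference of the treatment effect between depots was tested directly as an interaction and was not called, with a limma adjusted p of 0.939 for each copy over T libraries (0.604 without the 4 libraries nearer to another depot) and 0.847 over BPA libraries. Averaged over the 4 depots of each sheep after rescaling, MIR181A-1 was at 13.30 ± 0.32 on the log2 scale in T cohort controls and 12.83 ± 0.50 in prenatal T sheep (SD, n = 4 and 4). The difference was -0.48 (exact two-sided permutation p = 0.171, where 0.0286 is the smallest possible). Without the 4 libraries nearer to another depot it was -0.35 for each copy (exact permutation p = 0.171). Sheep 098, 233 and 255 were then averaged over the depots left to them, so that sheep were compared over unlike depots. With all libraries, as a share of all microRNA reads, the difference was -0.15 and -0.16 (exact permutation p = 0.40). The ranges over sheep were 12.82 to 13.51 and 12.14 to 13.31, and they overlapped. In the BPA cohort the difference was 0.18 (exact two-sided permutation p = 0.40), and 0.091 as a share of all microRNA reads.

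**Figure D1:**
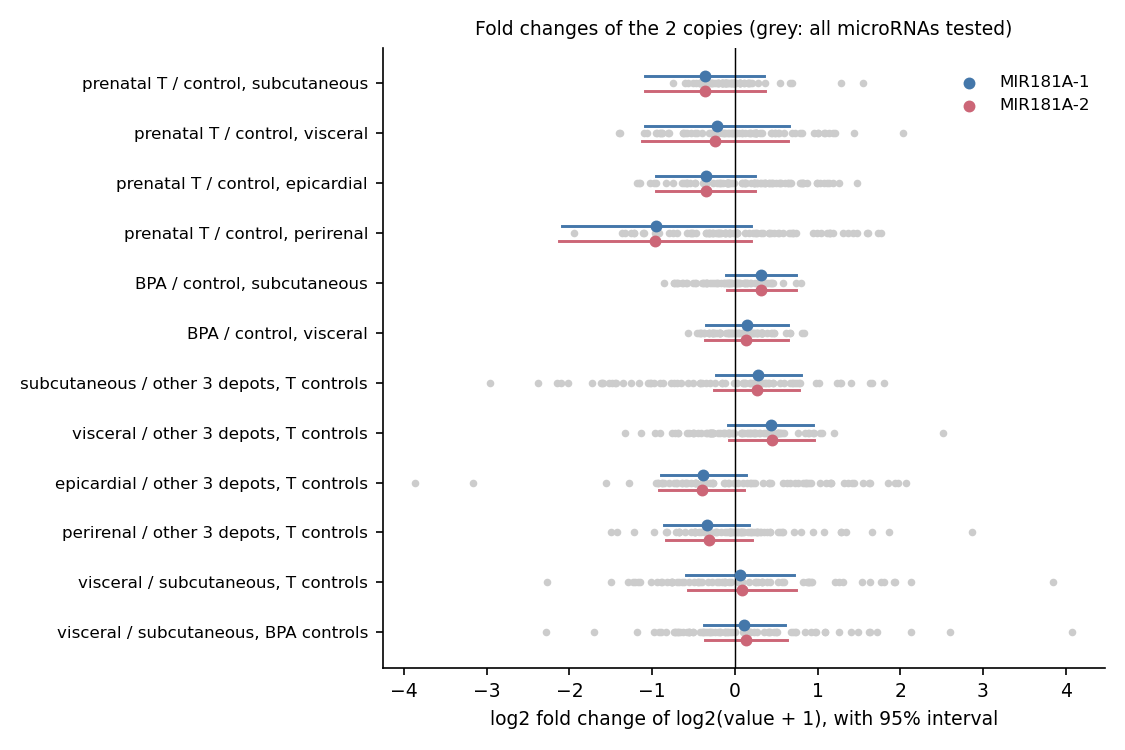
Log2 fold change (x axis, with 95% interval) of MIR181A-1 and MIR181A-2 in the 6 treatment comparisons, in each depot against the other 3 in T cohort controls, and in visceral against subcutaneous fat, with every other microRNA tested as a grey point. Both copies gave almost the same value in each comparison, every interval includes 0, and the lowest values are -0.95 and -0.97 in perirenal fat under prenatal T.

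Depots were compared after libraries had been rescaled together, since the deposited scale differed between depots by -0.83 (visceral), -0.17 (subcutaneous), 0.35 (epicardial) and 0.65 (perirenal) log2 units in the T cohort. On this common scale, visceral and subcutaneous fat of T cohort controls had the higher levels of MIR181A-1 and perirenal and epicardial fat the lower, but no depot passed the test. Visceral libraries of controls 098, 131, 132 and 201 were at 11647, 15569.9, 9790.2 and 14849 common-scale reads, and subcutaneous libraries at 12058, 13247, 6122 and 17716. Perirenal libraries were at 15412, 7733, 5692 and 7017. Epicardial libraries were at 8534, 8679, 8113 and 8895. All 4 visceral values lay above all 4 epicardial values. In perirenal fat 3 libraries lay below every visceral and epicardial control, and sheep 098, the library nearer to visceral fat, lay above all but 1 of the visceral controls.

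In order of their means, control depots were visceral (12964 ± 2717), subcutaneous (12286 ± 4777), perirenal (8963 ± 4381) and epicardial (8555 ± 329.8 common-scale reads of MIR181A-1, SD, n = 4). Neighbours in this order differed by less than their spread. Against the mean of the other 3 depots, the log2 fold change of MIR181A-1 was 0.43 in visceral (SE 0.25, limma adjusted p = 0.312), 0.29 in subcutaneous (0.352), -0.34 in perirenal (0.405) and -0.38 in epicardial fat (0.206). MIR181A-2 had 0.45, 0.26, -0.31 and -0.40. Neither copy was called, where 3.9% of 77 microRNAs were called in visceral, 45.5% in subcutaneous, 13% in perirenal and 41.6% in epicardial fat. Of the 6 pairs of depots, 0 were called for either copy. Epicardial against visceral fat came nearest, at -0.61 for MIR181A-1 and -0.63 for MIR181A-2 (limma adjusted p = 0.133 and 0.126, 14.3% of microRNAs called). Against subcutaneous fat, MIR181A-1 was at 0.11 in visceral (33.8% of microRNAs called), -0.50 in epicardial (50.6%) and -0.47 in perirenal fat (29.9%). Perirenal fat was at -0.58 against visceral (5.19%) and 0.03 against epicardial fat (19.5%).

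The depot values moved with the libraries used. Without perirenal control 098, perirenal fat was at -0.64 and -0.61 against the other depots and passed the test (limma adjusted p = 0.038 and 0.048). That library was left out for its likeness to visceral fat, which can itself widen the depot difference. With a term for the library set, epicardial fat, whose 4 control libraries were all later, was at -0.77 and -0.79 and passed (limma adjusted p = 0.022 and 0.021), and perirenal fat was at -0.14 and -0.12. Relative to all microRNA reads of the library in place of the common scale, epicardial fat turned to 0.15 and 0.13, visceral fat was at 0.12 and 0.14, subcutaneous fat at 0.097 and 0.075 and perirenal fat at -0.37 and -0.35, none called. Without perirenal control 098, epicardial fat was at -0.25 and -0.27. How many of all microRNAs were called in these other fits was not counted. In the main fit it was 41.6% in epicardial and 13% in perirenal fat. Of the perirenal controls only 098 was later, so that the set term rested on few libraries.

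Prenatal T sheep gave the same comparison in other animals. Visceral libraries of sheep 48, 185, 233 and 255 were at 19512, 15622, 8491 and 6298 common-scale reads of MIR181A-1. Subcutaneous libraries were at 12449.6, 10250.5, 7706 and 8491, and epicardial libraries at 7107, 3869, 8901 and 4431. Perirenal libraries were at 6195, 7318, 5095 and 1735, all below every subcutaneous value. The log2 fold changes against the other 3 depots were 0.86 for each copy in visceral, 0.53 and 0.52 in subcutaneous, -0.41 and -0.42 in epicardial and -0.98 and -0.96 in perirenal fat, none called (limma adjusted p = 0.287, 0.283 to 0.293, 0.618 and 0.127). The shares of microRNAs called were 0%, 40.2%, 4.88% and 11%. Without the 3 libraries nearer to another depot, visceral fat was at 1.30 for each copy (limma adjusted p = 0.0045) and epicardial fat at -0.81 and -0.82 (limma adjusted p = 0.015), both past the test. In that fit 2 visceral libraries remained. The visceral libraries left out, of sheep 233 and 255, had the lowest visceral levels (8491 and 6298). They were left out for their likeness to another depot, which can itself widen depot differences. The share of all microRNAs called in that fit was not counted. With all prenatal T libraries, no pair of depots was called for either copy. Perirenal fat was at -1.38 and -1.36 against visceral fat (limma adjusted p = 0.154, with 1 of 82 microRNAs called higher and 0 lower). Against subcutaneous fat it was at -1.13 and -1.11 (limma adjusted p = 0.086 and 0.093, with 7 called higher and 6 lower).

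Visceral and subcutaneous fat were measured in both cohorts. BPA cohort controls had 14793, 11516, 8987 and 10916 common-scale reads of MIR181A-1 in visceral and 11127, 8764, 7788 and 14006 in subcutaneous fat (sheep 902, 908, 924 and 928), higher in visceral fat in 3 of 4 sheep. BPA sheep 910, 918, 977 and 984 had 19540.0, 9399, 11612 and 10434 in visceral and 12747, 12557, 11953 and 11586 in subcutaneous fat, higher in 1 of 4. The log2 fold change of MIR181A-1 was 0.12 in BPA cohort controls (95% interval -0.38 to 0.61, limma adjusted p = 0.722, 27% of microRNAs called) and -0.05 in BPA sheep (limma adjusted p = 0.862, 48.6% called). In T cohort controls, fitted on these depots alone, it was 0.06 (-0.59 to 0.71, limma adjusted p = 0.881, 29.6% called). MIR181A-2 had 0.13, -0.04 and 0.09.

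**Figure D2:**
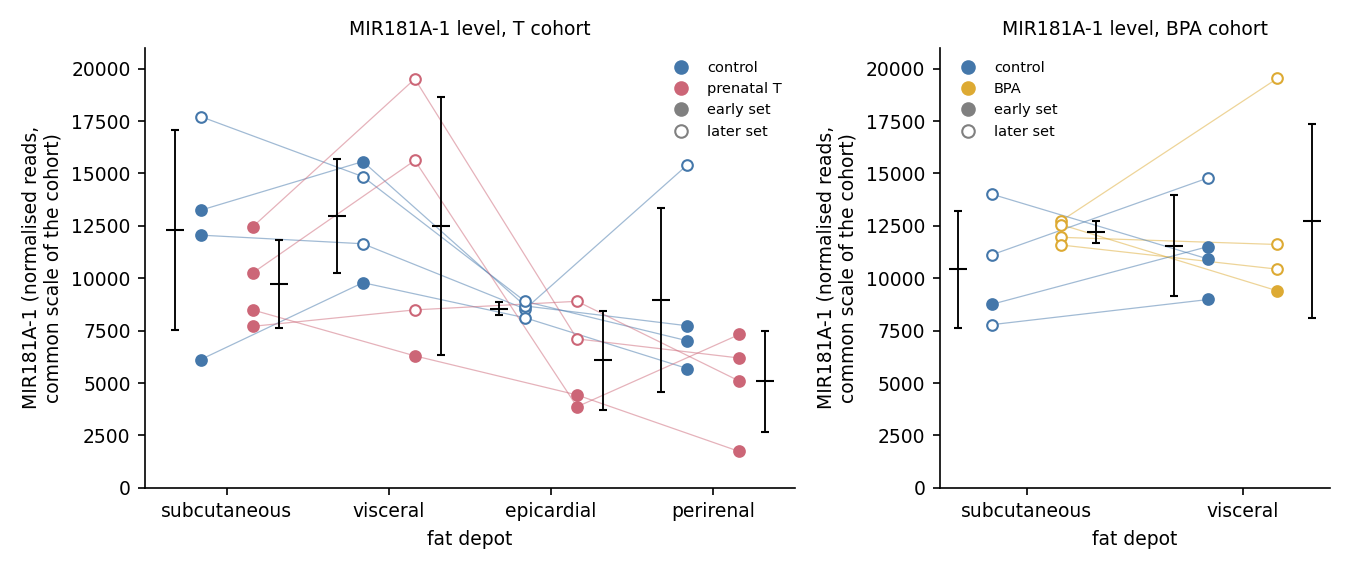
MIR181A-1 in each library (y axis, normalised reads on a scale common to the cohort) by fat depot and treatment, with lines joining libraries of a sheep, filled points for the early and open points for the later library set, and black marks for the mean ± SD of 4 sheep. Epicardial controls sit between 8113 and 8895, below all 4 visceral controls (9790.2 to 15569.9), and perirenal libraries run from 1735 (prenatal T 255) to 15412 (control 098).

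The copies were then set against each other within each library, where the size factor cancels. MIR181A-2 had more reads than MIR181A-1 in 45 of 48 libraries and fewer in 3, and its ratio to MIR181A-1 lay between 0.99976 and 1.03976. The net difference was -3 to 517 reads (median 108.5). MIR29B-1 and MIR29B-2, the only other pair of copies with separate rows, had identical reads in all 48 libraries (10 to 237 reads). If the miR-181a rows were separate counts, counting error alone would give their difference an SD of 89.2 to 225.3 reads, and the net difference was below that SD in 31 of 48 libraries. Rows with reads in common would have a smaller SD, and how many reads were in common is not known. How the authors counted reads that fit both copies is not given here.

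The excess of MIR181A-2 was small in every depot and was highest in perirenal fat. In perirenal controls it was 2.89%, 3.40%, 3.25% and 3.62% of the MIR181A-1 reads (sheep 098, 131, 132 and 201), or 133, 405, 310 and 423 reads. In perirenal libraries of prenatal T sheep 48, 185, 233 and 255 it was 3.13%, 3.64%, 2.14% and -0.0151%, or 517, 435, 219 and -1 reads. Sheep 255, whose library lay nearer to epicardial fat, stood apart from the other 7. Control 098, the other perirenal library nearer to another depot, was with the rest in this ratio.

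Subcutaneous fat of the T cohort had 0.63%, 1.65%, 0.0832% and 0.672% in controls and 0.884%, 1.36%, 0.363% and 0.406% in prenatal T sheep, all below 7 of the 8 perirenal values. Epicardial fat had 0.696%, 1.33%, 0.913% and 0.622% in controls and 0.961%, 1.46%, 0.410% and 1.12% in prenatal T sheep. Visceral fat was in between, with 2.87%, 3.98%, 1.41% and 2.53% in controls and 1.53%, 1.71%, 0.573% and -0.017% in prenatal T sheep. Both low visceral values were of the libraries nearer to epicardial fat.

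Averaged over all 8 sheep, the excess was 2.76% ± 1.22 in perirenal, 1.82% ± 1.28 in visceral, 0.938% ± 0.357 in epicardial and 0.756% ± 0.526 in subcutaneous fat (mean ± SD, n = 8). Depots were compared within sheep by an exact two-sided sign-flip permutation test of the log2 ratio of the copies, adjusted over 7 pairs of depots. Perirenal fat was higher than subcutaneous fat by 1.999 percentage points (7 of 8 sheep, exact p = 0.0156, adjusted p = 0.0365) and higher than epicardial fat by 1.82 points (7 of 8 sheep, exact p = 0.0156, adjusted p = 0.0365). Leaving out any of the 7 sheep other than 255 took both adjusted p to between 0.0547 and 0.0729. Visceral against subcutaneous fat (1.07 points higher, 7 of 8 sheep, exact p = 0.0312) and perirenal against visceral fat (0.932 points higher, 7 of 8 sheep, exact p = 0.0391) each had an adjusted p of 0.0547. Epicardial fat was 0.885 points below visceral fat (lower in 7 of 8 sheep, exact permutation adjusted p = 0.128) and 0.182 points above subcutaneous fat (6 of 8 sheep, exact permutation adjusted p = 0.273).

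Without the 4 libraries nearer to another depot, visceral fat was above subcutaneous fat in 6 of 6 sheep and above epicardial fat in 6 of 6, and perirenal fat was above both subcutaneous and epicardial fat in 6 of 6 (exact permutation adjusted p = 0.0437 for each of these 4 pairs, 0.0312 being the smallest unadjusted p possible). Perirenal against visceral fat had 4 of 5 sheep higher (exact permutation adjusted p = 0.146). Leaving out libraries by their depot profile can itself widen such differences. Counted as CPM of microRNA reads in place of the ratio, the net difference between the copies in perirenal and visceral fat differed by 18.2 (6 of 8 sheep higher, exact permutation adjusted p = 0.775), and both lay above subcutaneous and epicardial fat (exact permutation adjusted p = 0.0273 to 0.0437).

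The BPA cohort gave visceral and subcutaneous fat of other sheep. Controls 902, 908, 924 and 928 had an excess of MIR181A-2 of 1.08%, 1.87%, 2.29% and 1.37% in visceral and 0.380%, 1.27%, -0.024% and 0.287% in subcutaneous fat. BPA sheep 910, 918, 977 and 984 had 1.47%, 1.42%, 0.917% and 1.26% in visceral and 0.999%, 0.727%, 0.300% and 0.432% in subcutaneous fat. Visceral fat was higher in 8 of 8 sheep, by 0.913 ± 0.593 points (SD), with an exact two-sided permutation p = 0.00781, the smallest possible, and an adjusted p of 0.0365. The depot means were 1.46% ± 0.439 and 0.546% ± 0.423.

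Perirenal controls had 37169.6 to 152539 CPM of MIR143 and perirenal prenatal T libraries 107027 to 175334, against 21069.7 to 73833 in subcutaneous and 13859.7 to 91238 in epicardial libraries of the cohort. In visceral fat it was at 19567 to 45067 in controls and 19376.8 to 153692 in prenatal T sheep. Prenatal T 255 had the highest value in both perirenal (175334) and visceral fat (153692), where its excess was -0.0151% and -0.017%. In the BPA cohort, MIR200A, MIR200B and MIR200C summed to 210.4 to 719.7 CPM in visceral and 28.9 to 332.2 CPM in subcutaneous libraries. In visceral fat of the T cohort they summed to between 4.49 CPM (prenatal T 48, excess 1.53%) and 407.5 CPM (prenatal T 233, excess 0.573%). In perirenal fat they summed to 19.7 to 40.6 CPM in controls and 22.6 to 200.1 CPM in prenatal T sheep, highest in sheep 255. MIR133 was at 1295 to 6332 CPM in epicardial controls and 372 to 25852 in epicardial prenatal T libraries. In subcutaneous fat of the cohort it was at 268 to 881 and 132 to 497. The part of these microRNAs, or of the cells they are listed under, in the ratio was not tested.

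The excess was lower in the later library set in 6 of the 8 groups that held both sets. In sheep whose libraries of a pair were of 1 set, visceral fat was above subcutaneous fat in 5 of 5 BPA cohort sheep (by 0.473 to 0.826 points) and in 3 of 4 T cohort sheep. Perirenal fat was above subcutaneous fat in 5 of 6 sheep and above epicardial fat in 2 of 3. Perirenal libraries were early in 7 of 8 sheep. Over all depots of a cohort together, the excess bore little relation to the level of MIR181A-1 (r = 0.197 over 32 T and -0.012 over 16 BPA libraries) or to depth (r = 0.094 and -0.231 with the log2 microRNA reads). These r are descriptions over libraries of which several share a sheep, and they do not describe libraries within a depot. The library lowest in MIR181A-1 also had the lowest excess in T cohort subcutaneous (control 132), visceral and perirenal fat (both prenatal T 255). The same held in BPA cohort subcutaneous fat (control 924). In epicardial (prenatal T 185) and BPA cohort visceral fat (control 924) the library lowest in MIR181A-1 had the highest excess.

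No treatment difference in the ratio of the copies passed the test in any depot. With 4 against 4 sheep the smallest exact permutation p possible was 0.0286. A difference in a single depot could therefore not pass the adjustment over 6 comparisons, whatever its size, and the adjusted values do not show that differences were absent. The largest difference was in visceral fat of the T cohort, where the log2 ratio was 0.038 ± 0.015 in controls and 0.014 ± 0.012 in prenatal T sheep (SD, n = 4 and 4, exact two-sided permutation p = 0.0857, adjusted p = 0.514 over 6 comparisons). Within the later set alone the difference was -0.020, against -0.025 in all libraries, and without the libraries nearer to epicardial fat it was -0.015 (exact permutation adjusted p = 0.891). Perirenal fat had a difference of -0.015 (exact permutation adjusted p = 0.571), and -0.0064 without the libraries nearer to other depots. The other 4 differences ran from -0.0055 to 0.002 (exact permutation adjusted p = 0.571 to 0.971). The excess of visceral over subcutaneous fat was smaller in prenatal T sheep than in controls (difference of the log2 ratios -0.025). Its exact permutation p was 0.0286, the smallest possible, and the adjusted p was 0.20 over the 7 pairs. It did not pass the adjustment, but a single pair at the smallest p could not pass it, so that the adjustment does not decide this difference. Without the libraries nearer to another depot that difference was -0.020 (exact permutation p = 0.0667, adjusted p = 0.467).

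**Figure D3:**
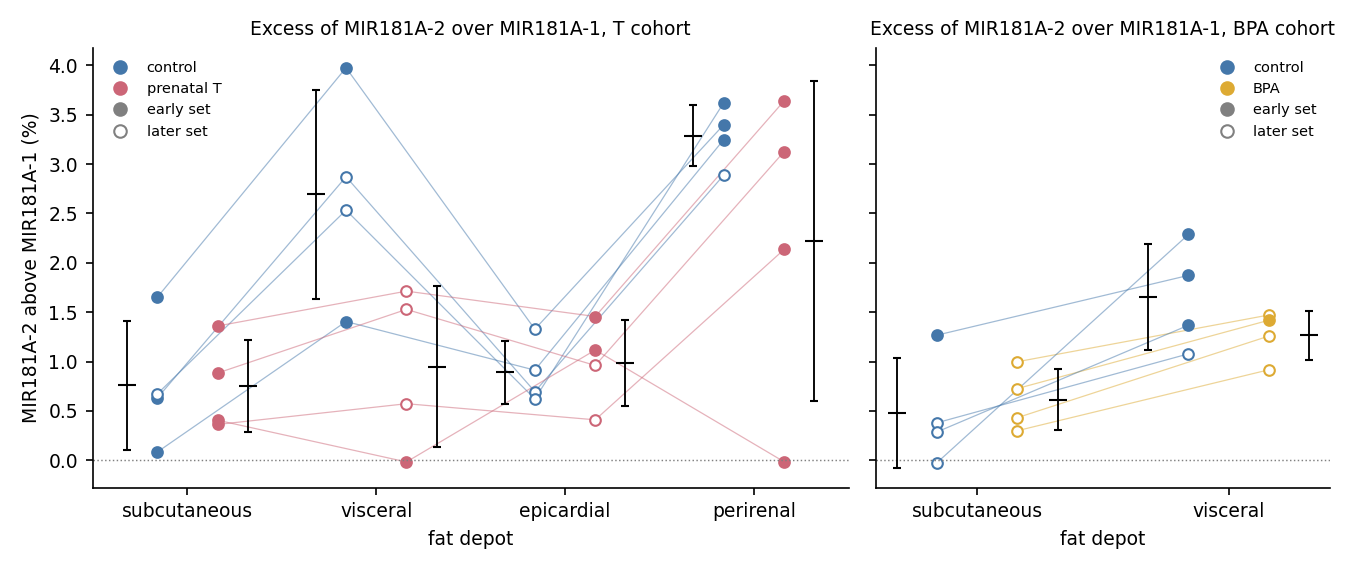
Reads of MIR181A-2 above those of MIR181A-1, in percent of MIR181A-1 reads (y axis), by fat depot and treatment, with lines joining libraries of a sheep, filled points for the early and open points for the later set, and black marks for the mean ± SD of 4 sheep. Perirenal libraries lie between 2.14% and 3.64% except prenatal T 255, and visceral fat lies above subcutaneous fat in all 8 sheep of the BPA cohort.

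LOC105611269, the long non-coding RNA that overlaps MIR181A-2, was looked at after the values of the copies had been seen. It has a row in the long non-coding RNA tables and had more reads than MIR181A-2 in all 48 libraries, by 231 to 2065 reads or 3.97% to 12.3% of the MIR181A-2 reads (median 7.11%). Because the features overlap and the counting rules are not given here, its reads and those of MIR181A-2 could not be told apart, and only the reads beyond those of MIR181A-2 are described. This excess was 10.4% ± 1.42 in perirenal, 7.59% ± 1.51 in visceral, 6.88% ± 0.444 in epicardial and 5.50% ± 1.14 in subcutaneous fat of the T cohort (mean ± SD, n = 8), and 8.03% ± 0.835 in visceral and 5.05% ± 0.719 in subcutaneous fat of the BPA cohort.

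Perirenal fat was higher than subcutaneous and epicardial fat in 8 of 8 sheep, by 4.94 and 3.56 points (exact sign-flip permutation p = 0.00781, adjusted p = 0.0137 over 7 pairs), and higher than visceral fat in 7 of 8 by 2.84 points (exact permutation adjusted p = 0.0219). Visceral fat was higher than subcutaneous fat in 8 of 8 T cohort sheep by 2.10 points and in 8 of 8 BPA cohort sheep by 2.99 points (exact permutation adjusted p = 0.0137 for each). Epicardial fat lay 1.38 points above subcutaneous fat (7 of 8 sheep, exact permutation adjusted p = 0.0456) and did not differ from visceral fat past the test (exact permutation adjusted p = 0.266). Without the 4 libraries nearer to another depot, perirenal fat was above subcutaneous fat by 5.33 points and above epicardial fat by 4.23 points (6 of 6 sheep each), and above visceral fat by 3.47 points (5 of 5 sheep). Visceral fat was then above subcutaneous fat by 2.26 points (6 of 6 sheep). None of the 7 pairs passed in that set (exact permutation adjusted p = 0.0547 to 0.219), where the smallest unadjusted p possible was 0.0312 with 6 sheep and 0.0625 with 5. Within 1 library set, perirenal fat was above subcutaneous fat in 6 of 6 sheep and visceral fat was above subcutaneous fat in 4 of 4 T and 5 of 5 BPA cohort sheep. Perirenal prenatal T 255, where the copies differed by 1 read, had a LOC105611269 excess of 8.62%, above all 8 subcutaneous libraries of the cohort. Treatment differences were -0.901 to 0.215 points in the 6 comparisons (exact permutation adjusted p = 0.914 for each). With 4 against 4 sheep, a difference in a single depot could not have passed this adjustment.

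**Figure D4:**
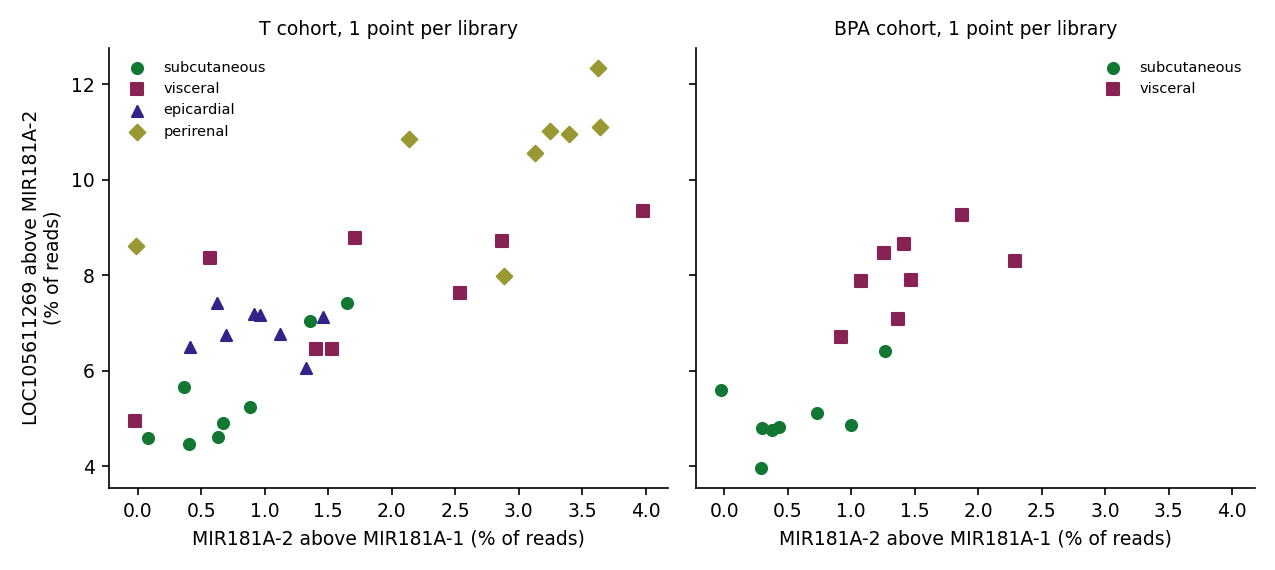
Reads of LOC105611269 above those of MIR181A-2 (y axis, percent of MIR181A-2 reads) against reads of MIR181A-2 above those of MIR181A-1 (x axis, percent of MIR181A-1 reads), 1 point per library, by depot. Subcutaneous libraries lie low on both axes and most perirenal libraries high on both (r = 0.803 over 32 T and 0.828 over 16 BPA libraries, a description, as both quantities contain the MIR181A-2 reads).

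The microRNAs whose common-scale log2 levels were most like those of MIR181A-1 over the 32 T libraries were MIR106B (r = 0.938), a member of the miR-17 seed family, and MIRLET7C (0.932), MIRLET7B (0.922), MIRLET7A (0.901) and MIRLET7D (0.858), of the let-7 family that is abundant in differentiated tissue. Over the 16 BPA libraries their r was 0.745, 0.864, 0.771, 0.799 and 0.856. With the mean of each group taken out, r was 0.950, 0.904, 0.879, 0.884 and 0.902 in the T cohort, so that the likeness held among libraries of a group. These libraries share scale and sequencing, several share a sheep, and no test was made. MIR150, named after its values were seen, had r = 0.731 over T libraries and -0.201 over BPA libraries.

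Other microRNAs with reported roles in fat cell formation were counted in the same fits. Of 15 names listed as promoting it, 12 were tested, and of 9 listed as restraining it, 2 (MIR27A and MIR221). In the 6 treatment comparisons 0 of either list were called. In T cohort controls, 5 of the 12 promoting microRNAs were higher and 0 lower in subcutaneous fat (list median 0.50, against 0.03 over all 77 tested, of which 45.5% were called), where the miR-181a rows had 0.29 and 0.26. In epicardial fat 0 were higher and 3 lower (median -0.33, against 0.01, with 41.6% of all tested called), with the miR-181a rows at -0.38 and -0.40. In perirenal fat 1 was higher and 0 lower (median 0.02, 13% of all tested called), and in visceral fat 0 were called (median -0.27, 3.9% of all tested called), where the miR-181a rows were at 0.43 and 0.45. Of the 2 restraining microRNAs, 1 was higher in subcutaneous (median 1.24), 1 lower in epicardial (-0.68), 1 lower in perirenal (-0.56) and 0 called in visceral fat (0.01).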

How the data were processed

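Small RNA libraries were made with the NEBNext small RNA kit, per the labels' protocols. The submitters' processing notes name cutadapt 3.2, STAR 2.6.0c and featureCounts 1.6.1. Genome build, counting rules and normalising tool were not given in the sources used here. As deposited, each value is a signal, the reads of a row over 1 size factor per library, in 1 microRNA table for each cohort, and the long non-coding RNA tables were used for LOC105611269. Whole reads were recovered as multiples of the smallest step of a library (5040 of 5040 microRNA values whole within 1e-05). The factors equalled median-of-ratios factors of the 8 libraries of a depot (SD of the log2 difference 0), so depots were compared after rescaling by the median ratio over the libraries of the fit. The scale of the T cohort rested on 69 microRNAs, and in 2 libraries a miR-181a row was itself the median.

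Values were taken as log2(value + 1), and microRNAs with a mean of at least 5 entered limma 3.58.1 (R 4.3.3), with the spread trended on the mean and Benjamini-Hochberg adjustment over those tested. Fold changes are on that scale. Ratios of the copies were compared by exact permutation over sheep, with each sheep as 1 value. Sheep are separate animals. The labels pair the depots of a sheep. The median r of deviations from the group mean was 0.147 within T cohort sheep (27 of 48 pairs over 0.1) and -0.039 between them, and 0.183 (6 of 8) and 0.011 for BPA cohort sheep. The named microRNAs were both copies, other rows of the miR-181 family, other pairs of copies and the 5 microRNAs most like MIR181A-1. The members and all lists were chosen with earlier results of these data known. Alternatives covered the scaling, pseudocount, filter, sheep as a block, library set and each sheep left out. The 4 libraries nearer to other depots were left out, control and treated libraries joined, libraries rescaled without the copies, and LOC105611269 examined after seeing the data.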

Additional observations from a re-analysis of the deposited data

Results flagged for a closer look

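Of 48 checks for a library far from the other 3 of its group, 1 stood out, and chance gives about 1 in 20. In subcutaneous controls of the T cohort, LOC105611269 had 7.415% more reads than MIR181A-2 in sheep 131, where the next library had 4.92% and the lowest 4.61%. The gap was 0.889 of the range of the group. The excess of MIR181A-2 over MIR181A-1 was also highest in this library (1.65%).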

How the results depend on the processing

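Of the values recomputed under other settings, 477 kept their direction and side of the threshold, 34 changed direction, 18 gained the call and 14 lost it. With the scaling as deposited, which is not common to depots, visceral fat of T cohort controls turned to -0.63 for MIR181A-1 and -0.61 for MIR181A-2, perirenal fat to 0.54 and 0.56, and visceral against subcutaneous fat to -0.54 and -0.52 in the T and -0.061 and -0.044 in the BPA cohort. With CPM of microRNA reads, prenatal T in visceral fat turned to 0.22 and 0.20 and epicardial controls to 0.15 and 0.13. With the library set as a term, prenatal T in epicardial fat was at 0.091 and 0.088, BPA in visceral fat at -0.098 and -0.10, epicardial controls at -0.77 and -0.79, and visceral against subcutaneous fat of T controls at -0.025 for MIR181A-1. With control and treated libraries together, visceral fat was at 0.65 and 0.65 (limma adjusted p = 0.048) and perirenal fat at -0.65 and -0.63 (0.029 and 0.034). The share of all microRNAs called in that joint fit was not counted. Without libraries nearer to another depot, prenatal T in visceral fat turned to 0.47 and 0.46 and perirenal controls reached -0.64 and -0.61. In prenatal T libraries so reduced, visceral fat was at 1.30 and 1.30, epicardial fat at -0.81 and -0.82 and visceral against subcutaneous fat at 0.92 and 0.93. The log2 ratio of the copies was then 0.021 in visceral over subcutaneous and -0.019 in epicardial over visceral fat. BPA libraries alone gave -0.046 and -0.036 for visceral against subcutaneous fat. In the later set alone the ratio in epicardial fat under prenatal T was -0.0029. With sheep as a replicate block no call changed (visceral controls 0.43, limma adjusted p = 0.236, against 0.312). The causes were not tested.

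Leaving out 1 sheep at a time, prenatal T in visceral fat ran from -0.48 to 0.10 for MIR181A-1 and -0.51 to 0.083 for MIR181A-2, BPA in visceral fat from -0.052 to 0.27 and -0.058 to 0.27, and visceral against subcutaneous fat of T controls from -0.15 to 0.19 and -0.12 to 0.21. For MIR181A-1, prenatal T ran from -0.63 (without 132) to -0.17 (without 201) in subcutaneous, -0.57 (without 233) to -0.15 (without 185) in epicardial and -1.19 (without 185) to -0.46 (without 255) in perirenal fat, and BPA in subcutaneous fat from 0.21 to 0.44. The log2 ratio ran from -0.0033 to 0.0042 for prenatal T in subcutaneous, -0.00087 to 0.0041 in epicardial and -0.00043 to 0.0057 for BPA in subcutaneous fat. Between depots it ran from 0.013 to 0.018 (visceral over subcutaneous), 0.026 to 0.033 (perirenal over subcutaneous), -0.017 to -0.0090 (epicardial over visceral) and 0.023 to 0.032 (perirenal over epicardial). Perirenal over subcutaneous and over epicardial fat lost the call without any 1 of sheep 098, 131, 132, 201, 48, 185 and 233, with 7 sheep left, and visceral over subcutaneous and over epicardial fat gained it without 255 (exact permutation adjusted p = 0.0219). edgeR and DESeq2 on recovered reads were not run. The net difference between the copies was below the SD that separate counts would have in 31 of 48 libraries. The rows were not shown to be separate counts, so that this does not place the differences within counting noise.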
